A study of Mus musculus with 2 samples.

Results

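Ciliated airway cells, the multiciliated cells that line the bronchi and bronchioles, were examined in single-cell RNA profiles of bleomycin-injured mouse lung. A barcode was counted as ciliated when it had at least 500 detected genes, at most 15% mitochondrial UMIs, at most 3 UMIs of Col1a1, Col1a2 and Col3a1 together, and at least 20 UMIs per 10000 of Tmem212, Ccdc153, Dynlrb2, Rsph1 and Cfap126 together. UMIs (unique molecular identifiers) count captured transcript ends, so levels do not depend on transcript length. The members were thus chosen by the measured levels of these genes, which are a description and no finding. The rule found 863 cells, 464 in the navitoclax library and 399 in the vehicle library, of 13841 barcodes that passed the limits on genes and mitochondrial UMIs (6445 navitoclax and 7396 vehicle) and 16848 deposited barcodes.

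The study had 2 groups of C57Bl6 mice, and all of them received bleomycin, a drug that injures the lung and leads to fibrosis, on day 1. The navitoclax group then received navitoclax (ABT-263), a drug that blocks BCL-2, BCL-XL and BCL-W, proteins that hold back apoptosis, from day 15 to day 20, and the vehicle group received vehicle. Lungs were collected 21 days after the injury, digested and flow-sorted, and the epithelial and stromal fractions were joined 1:1 before capture with a Chromium 3′ kit. Each group is represented by 1 library, and the number, age and sex of its mice are not stated in the sources used here. No uninjured lung was analysed here. With 1 library per group there is no test of the treatment, all differences between libraries are descriptions of these libraries, and the 95% intervals below cover counting error only, not differences between mice or preparations.

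Multiciliated cells carry many motile cilia whose beat moves mucus and trapped particles out of the airway. Each motile cilium is built on a basal body and holds an axoneme of microtubule doublets around a central pair, with outer and inner dynein arms that drive the beat, radial spokes and nexin links that regulate it, and intraflagellar transport trains that carry its parts. The programme is started by the geminin-related regulators Gmnc and Mcidas and kept up by the transcription factors Foxj1 and Rfx2 and Rfx3. In mouse airways ciliated cells arise mainly from club cells, the secretory cells of the bronchioles, and they do not normally divide.

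Few barcodes lay near the threshold of the rule. The score of the 5 genes, by which the cells were chosen, had a median of 75.7 per 10000 UMIs in navitoclax members and 82.5 in vehicle members. Just inside the threshold, at 20 to 30 per 10000, lay 23 navitoclax and 15 vehicle members, and just outside it, at 10 to 20, lay 28 navitoclax and 18 vehicle barcodes. The cells just inside had median depths of 34871 and 25305 UMIs in the navitoclax and vehicle libraries, above the medians of all members (12616 and 10173 UMIs), and their AT2 marker score was 202 and 213 per 10000. Of the barcodes over the gene threshold (590 navitoclax, 517 vehicle), 19 and 9 were left out for too few genes, 72 and 82 for mitochondrial UMIs and 35 and 27 for collagen.

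**Figure D1:**
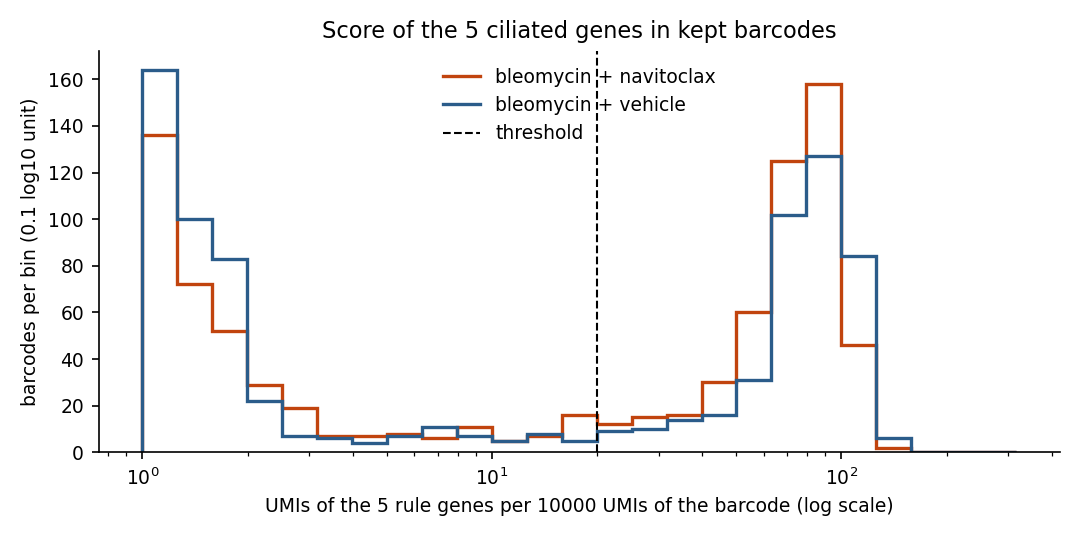
Number of kept barcodes with at most 3 collagen UMIs (vertical axis) against the score of Tmem212, Ccdc153, Dynlrb2, Rsph1 and Cfap126 in UMIs per 10000 (horizontal, log scale), in the navitoclax and vehicle libraries; barcodes under 1 per 10000 are not drawn and the dashed line marks the threshold of 20. Both libraries have a peak of ciliated cells at about 80 per 10000 and few barcodes near the threshold.

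Members with transcripts of another epithelial type were set apart and are called mixed. A mixed member had at least 20 UMIs per 10000 of the AT2 genes Sftpa1, Lamp3, Abca3, Slc34a2 and Napsa, or at least 150 of the club cell genes Scgb1a1, Scgb3a2 and Cyp2f2. There were 58 mixed members in the navitoclax library (12.5%) and 38 in the vehicle library (9.52%), and they held 22.6% and 18.7% of the members' UMIs. The doublet caller Scrublet marked 26 navitoclax members (5.60%) and 19 vehicle members (4.76%). Values are given for all members, and for the 406 navitoclax and 361 vehicle unmixed members where the mixed cells move them.

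Ciliated markers that the rule did not use were high as well. The summed level of 10 further ciliated markers (Foxj1, Dnah5, Dnah9, Tekt1, Sec14l3, Cyp2s1, Fam183b, Tppp3, Cdhr3 and Hydin) was 11296 UMIs per 1000000 UMIs (CPM) in unmixed navitoclax ciliated cells and 11437 CPM in unmixed vehicle ones. In AT2-like cells the same sum was 127 and 95.9 CPM, in fibroblasts 92.9 and 66.0 CPM, and in club-like cells 442 and 346 CPM. Foxj1, the master regulator of motile cilia, had a UMI in 84.1% of navitoclax and 80.5% of vehicle unmixed members thinned to 2000 UMIs. It had one in 0.484% and 0.328% of AT2-like cells, which do not make motile cilia. Before thinning, the unmixed members had median depths of 12326 and 9929 UMIs and the AT2-like cells 19635 and 17883.

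Of the marker lists of other cell types, the club cell list had the highest sum in unmixed members, 12500 CPM in the navitoclax and 12338 CPM in the vehicle library. Markers of the transitional state of injured alveolar epithelium summed to 3780 and 3189 CPM, above AT2-like cells (1014 and 901 CPM). This list shares Krt8 and Krt18 with the pan-epithelial markers, which were also higher in unmixed members (4640 and 4510 CPM) than in AT2-like cells (1559 and 1563 CPM). The list was not summed without these keratins, and whether the sum marks a transitional state in ciliated cells was not tested. AT1 markers summed to 1407 and 1344 CPM, below AT2-like cells (3219 and 3086 CPM). Immune markers summed to 23.2 CPM in navitoclax and 10.3 CPM in vehicle unmixed members, with 6 of 10 at 0 in both, Ptprc among them. Basal markers summed to 0.966 and 0.272 CPM, with Trp63 and Krt14 at 0 in both libraries. AT2 markers, some of which were used to set the mixed members apart, reached 3054 and 2452 CPM in unmixed members, against 326040 and 313900 CPM in AT2-like cells and 3289 and 2662 CPM in fibroblasts, which do not make surfactant. In all members together, mixed cells included, AT2 markers summed to 35466 CPM in the navitoclax library and 23519 CPM in the vehicle library.

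Genes far above their level in the other classes included many of the motile cilium. Of 805 genes at 200 CPM or more in ciliated cells of both libraries, 124 (15.4%) were at least 10-fold above the highest of the club-like, AT2-like and fibroblast levels. Of the 124, 43 (34.7%) were in 14 lists of cilium genes, which hold 213 of the 27998 genes measured. The share of these lists among the 805 genes was not counted. These folds were fixed in part by the choice of cells and are a description. The 15.4% covers genes at 200 CPM or more only, and no such share was counted for the lower genes in the list counts that follow. Sntn, which encodes sentan, a protein of the ciliary tip, had 552 CPM in navitoclax and 608 CPM in vehicle ciliated cells, 108-fold above the highest other class. Enkur, an axonemal protein that also binds TRPC channels, had 309 and 353 CPM and a fold of 90.5. Dnah6, an inner arm dynein heavy chain, had 341 and 381 CPM and a fold of 88.9, and Pcp4l1, a relative of the calmodulin-binding protein Pcp4, had 644 and 759 CPM and a fold of 108.

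Promoters of these genes were searched for the X-box, the element bound by the RFX factors of ciliated cells. RefSeq promoters (GRCm38.p6, 250 bases before the gene start) were on hand for 103 of the 124 genes, and 9 of them (8.74%) held an X-box on either strand, against 1.33% of all 27025 promoters of the same length. The shorter element GTTGCC, which is part of many X-boxes, was in 31 of 103 (30.1%) against 10.5% of all promoters. All genes of the rule are among the 124 genes, and Dynlrb2, a rule gene, is among the 9 with an X-box. Neither share was counted without the rule genes, so both rest in part on genes by which the cells were chosen. A match describes the letters only. Promoters of 3 ciliated genes are shown to place the element, which is in capitals together with any GTTGCC (either strand), each written 5′ to 3′ on the gene's strand and ending at the base before the gene start. They are Dynlrb2 at chr8:116504765-116505014 (plus strand, a dynein light chain of the rule with 1322 CPM in navitoclax and 1504 CPM in vehicle ciliated cells, X-box at -51 to -39), Lrrc23 at chr6:124779728-124779977 (minus strand, a radial spoke protein with 292 and 305 CPM, X-box at -164 to -152) and Hydin at chr8:110266727-110266976 (plus strand, a central pair protein, X-box at -21 to -8).
Dynlrb2: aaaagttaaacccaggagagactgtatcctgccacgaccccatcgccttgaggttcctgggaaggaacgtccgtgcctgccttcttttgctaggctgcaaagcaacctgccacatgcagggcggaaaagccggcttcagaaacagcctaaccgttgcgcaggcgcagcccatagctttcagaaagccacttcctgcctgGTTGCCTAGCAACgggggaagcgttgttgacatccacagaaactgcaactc
Lrrc23: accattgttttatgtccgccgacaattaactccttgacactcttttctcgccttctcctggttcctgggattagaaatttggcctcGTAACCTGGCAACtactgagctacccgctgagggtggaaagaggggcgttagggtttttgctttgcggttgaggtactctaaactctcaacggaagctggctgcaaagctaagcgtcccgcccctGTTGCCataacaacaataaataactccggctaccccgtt
Hydin: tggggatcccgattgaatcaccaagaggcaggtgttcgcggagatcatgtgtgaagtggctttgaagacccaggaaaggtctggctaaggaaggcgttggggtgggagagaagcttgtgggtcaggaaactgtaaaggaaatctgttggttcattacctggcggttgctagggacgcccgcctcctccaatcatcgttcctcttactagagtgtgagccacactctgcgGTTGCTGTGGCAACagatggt

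Among the proteins that power the beat, both dynein arm sets were high in both libraries. The 11 measured outer arm genes summed to 1492 CPM in navitoclax and 1585 CPM in vehicle ciliated cells, and 9 of 11 were at least 10-fold above the other classes. Dnah5, the main outer arm heavy chain and a common site of human primary ciliary dyskinesia mutations, had 354 CPM in the navitoclax and 388 CPM in the vehicle library, a ratio of 0.910 (95% interval 0.856 to 0.969). Dnah9, its partner heavy chain, had 205 and 219 CPM. The 11 inner arm genes summed to 1891 and 1955 CPM, and all 11 were at least 10-fold above the other classes. Dnah12 had 266 and 265 CPM and the light intermediate chain Dnali1 had 315 and 310 CPM, so that their levels in the 2 libraries differed by less than counting error.

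Dynein arms are put together in the cytoplasm, by dedicated factors, before they enter the cilium. Zmynd10, a co-chaperone of the arms, had 156 CPM in navitoclax and 154 CPM in vehicle ciliated cells, and Lrrc6, its binding partner, had 129 and 139 CPM. Dnaaf1 had 73.9 and 88.7 CPM, with a ratio of 0.833 (0.728 to 0.952). Dnaaf5 had 60.8 and 48.0 CPM, with a ratio of 1.27 (1.07 to 1.5). Of the 14 assembly genes with at least 20 UMIs, 11 were 10-fold above the other classes.

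The regulators of the beat followed the same pattern. Of the radial spoke genes, the spoke head genes Rsph9 and Rsph4a had 435 and 187 CPM in navitoclax cells, against 451 and 212 CPM in vehicle cells. All 15 central pair genes were at least 10-fold above the other classes. Hydin, a very large protein of the central pair whose loss impairs ciliary bending, had 215 CPM in the navitoclax and 284 CPM in the vehicle library, a ratio of 0.757 (0.702 to 0.817), while Spag17 had 302 and 317 CPM. The nexin link and ruler genes summed to 1878 and 2059 CPM. A log2 ratio above 0 was seen in 51.1% of all genes with at least 20 UMIs and in 0 of these 11. Among them, Ccdc39 and Ccdc40, the axonemal rulers, had 332 and 166 CPM in navitoclax cells and 354 and 176 CPM in vehicle cells. Iqcd, a nexin link subunit, had the lowest ratio of all cilium genes that passed the level filter, 0.744 (0.634 to 0.874), at 48.7 CPM in navitoclax and 65.5 CPM in vehicle cells.

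The walls of the doublets were represented by tubulins and the proteins inside the microtubules. Tuba1a and Tubb4b, an alpha and a beta tubulin, had 2950 and 2586 CPM in navitoclax ciliated cells, against 3271 and 3103 CPM in vehicle ciliated cells. Tubb4b was 8.21-fold above the other classes and its ratio was 0.833 (0.815 to 0.852). Tekt1, a tektin filament of the doublet, had 342 and 394 CPM (ratio 0.866, 0.814 to 0.922), and Cfap53, another inner protein, had 479 and 469 CPM.

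Intraflagellar transport genes were expressed in other classes too, and 9 of 25 were 10-fold above them. Ift43, of the retrograde complex, had 681 CPM in navitoclax and 737 CPM in vehicle ciliated cells, and was 7.26-fold above the highest other class. Ift88, of the anterograde complex, had 166 and 196 CPM, a ratio of 0.844 (0.772 to 0.923). Ift22, a small GTPase of the train, had 234 and 214 CPM, a ratio of 1.09 (1.01 to 1.18). Of the gate at the ciliary base, B9d1 had 266 and 277 CPM and Cep290 had 223 and 234 CPM. The BBSome subunits, which sort membrane proteins, lay between 30.8 and 135 CPM in the navitoclax library and between 31.6 and 140 CPM in the vehicle library.

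The regulators that keep the cells ciliated were present at similar levels in the 2 libraries. Foxj1 had 816 CPM in navitoclax and 765 CPM in vehicle ciliated cells (ratio 1.07, 1.02 to 1.11), Rfx3 had 80.0 and 78.5 CPM and Myb, needed early for multiciliated differentiation, had 143 and 144 CPM. Trp73, a p53 relative that acts upstream of Foxj1, had 57.4 and 64.1 CPM. The regulators that start the programme were at the edge of detection. Mcidas was seen with 4 UMIs in navitoclax members, all in 1 unmixed cell, and with 6 UMIs in vehicle members, all in 1 mixed cell. Gmnc had 3 and 0 UMIs in navitoclax and vehicle members, and Ccdc67 (Deup1), the deuterosome scaffold, had 35.4 and 32.3 CPM.

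Taken as 1 set of 213 cilium genes in 14 lists, 205 had at least 20 UMIs, and the median log2 ratio of navitoclax over vehicle was -0.06, with 67 genes above 0 and 138 below. Over all 11816 genes with at least 20 UMIs the median was 0.00 and 51.1% were above 0. Of the 152 cilium genes that passed the level filter (100 UMIs in both libraries together and 50 CPM in the higher library), 0 were past 1.5-fold in either direction. Of all 3515 genes that passed it, 1.17% were. In unmixed members the median was -0.04, with 119 of 205 below 0, where 51.5% of all genes were above 0. The rule genes, which cannot serve as evidence, summed to 6878 CPM in navitoclax and 7583 CPM in vehicle members, and 7812 and 8463 CPM in unmixed ones.

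The cilium gene with the highest ratio that passed the filter was Ckb, brain-type creatine kinase, which regenerates ATP. It had 577 CPM in navitoclax and 425 CPM in vehicle ciliated cells, a ratio of 1.36 (1.29 to 1.44). In fibroblasts its ratio was 1.01 (0.981 to 1.05). The ratio in unmixed ciliated cells was 1.40 times the one in fibroblasts (1.31 to 1.5). Other energy and redox genes of the cilium were closer between the libraries, as Prdx5, a peroxiredoxin, at 1078 and 1097 CPM, and Mlf1 at 764 and 732 CPM.

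**Figure D2:**
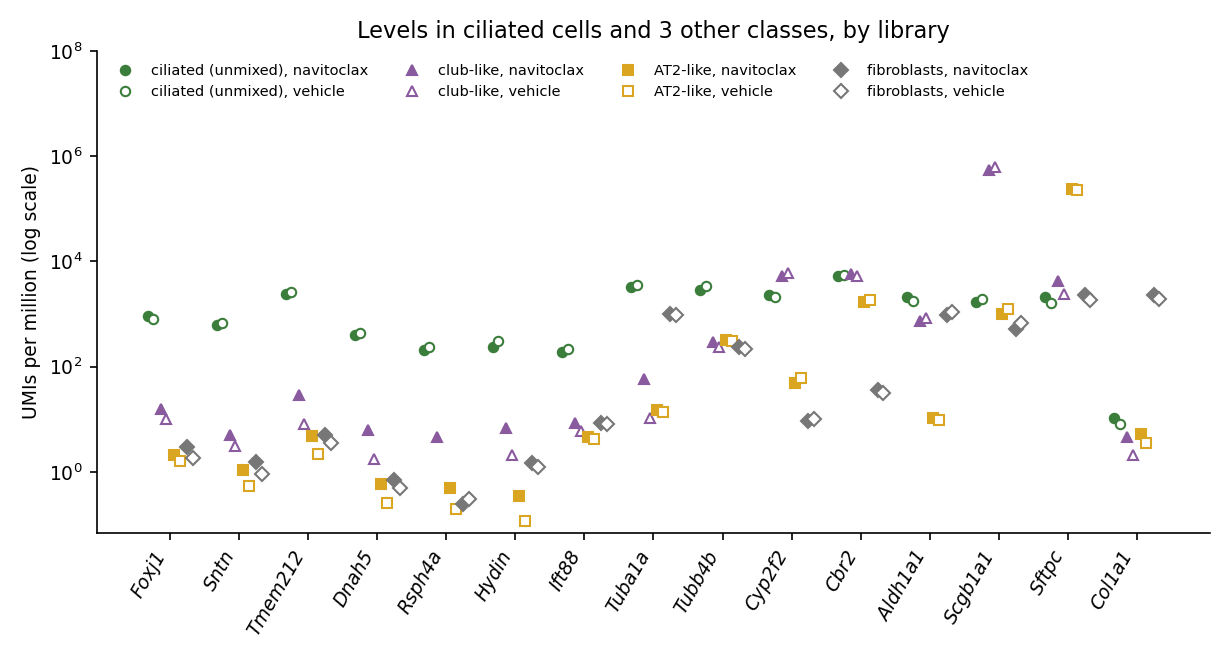
Level of 15 genes in CPM (vertical, log scale) in unmixed ciliated cells, club-like cells, AT2-like cells and fibroblasts, with filled symbols for the navitoclax and open symbols for the vehicle library; a level of 0 is not drawn. The 7 genes on the left, Foxj1 to Ift88, are above the other classes by more than 10-fold, while Cbr2, Cyp2f2 and Aldh1a1 are also high in club-like cells.

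Ciliated cells also held transcripts of enzymes that handle foreign compounds. Cyp2f2, a cytochrome P450 known from club cells, had 2262 CPM in unmixed navitoclax and 2062 CPM in unmixed vehicle ciliated cells, 48.1 and 60.4 CPM in AT2-like cells, and 5355 and 6067 CPM in club-like cells. Scgb1a1, the main secretory product of club cells, had 1727 and 1928 CPM in the same unmixed ciliated cells, but also 987 and 1240 CPM in AT2-like cells and 509 and 679 CPM in fibroblasts. Scgb1a1 thus lay nearer to its level in cells that do not make it than Cyp2f2 did. Aldh1a1, a retinal dehydrogenase, was higher in unmixed ciliated cells (2065 CPM navitoclax, 1769 CPM vehicle) than in club-like cells (740 and 857 CPM). The carbonyl reductase Cbr2 had 5341 and 5572 CPM and the glutathione transferase Gstm1 had 1642 and 1720 CPM in unmixed navitoclax and vehicle members.

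The 464 and 399 members were 14.9% of 3124 epithelial barcodes in the navitoclax library (95% interval 13.6 to 16.1%) and 11.8% of 3383 in the vehicle library (10.7 to 12.9%). The difference was 3.06 percentage points (Newcombe 95% interval 1.41 to 4.72). In a share, more ciliated cells and fewer other epithelial cells cannot be told apart.

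Between the libraries, 32 of the 3515 genes that passed the level filter (0.91%) were at least 1.5-fold higher in navitoclax ciliated cells and 9 (0.256%) were at least 1.5-fold lower. In unmixed members 21 of 3608 (0.582%) were higher and 6 (0.166%) were lower, and 14 higher and 6 lower genes were shared by both counts. The shares in other classes were similar in size, 0.738% higher and 0.369% lower in AT2-like cells, and 0.847% higher and 0.502% lower in fibroblasts. Of the 18 genes that were higher only when mixed members were counted, many are known AT2 products, such as Sftpc, Cxcl15, Lcn2, Scd1 and Fabp5. Cxcl15 had 1223 CPM in navitoclax and 674 CPM in vehicle members, but 110 and 81.0 CPM in unmixed members. Fabp5, a fatty acid carrier, had 173 and 96.0 CPM in all members and 12.9 and 16.6 CPM in unmixed members, so that its direction turned.

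**Figure D3:**
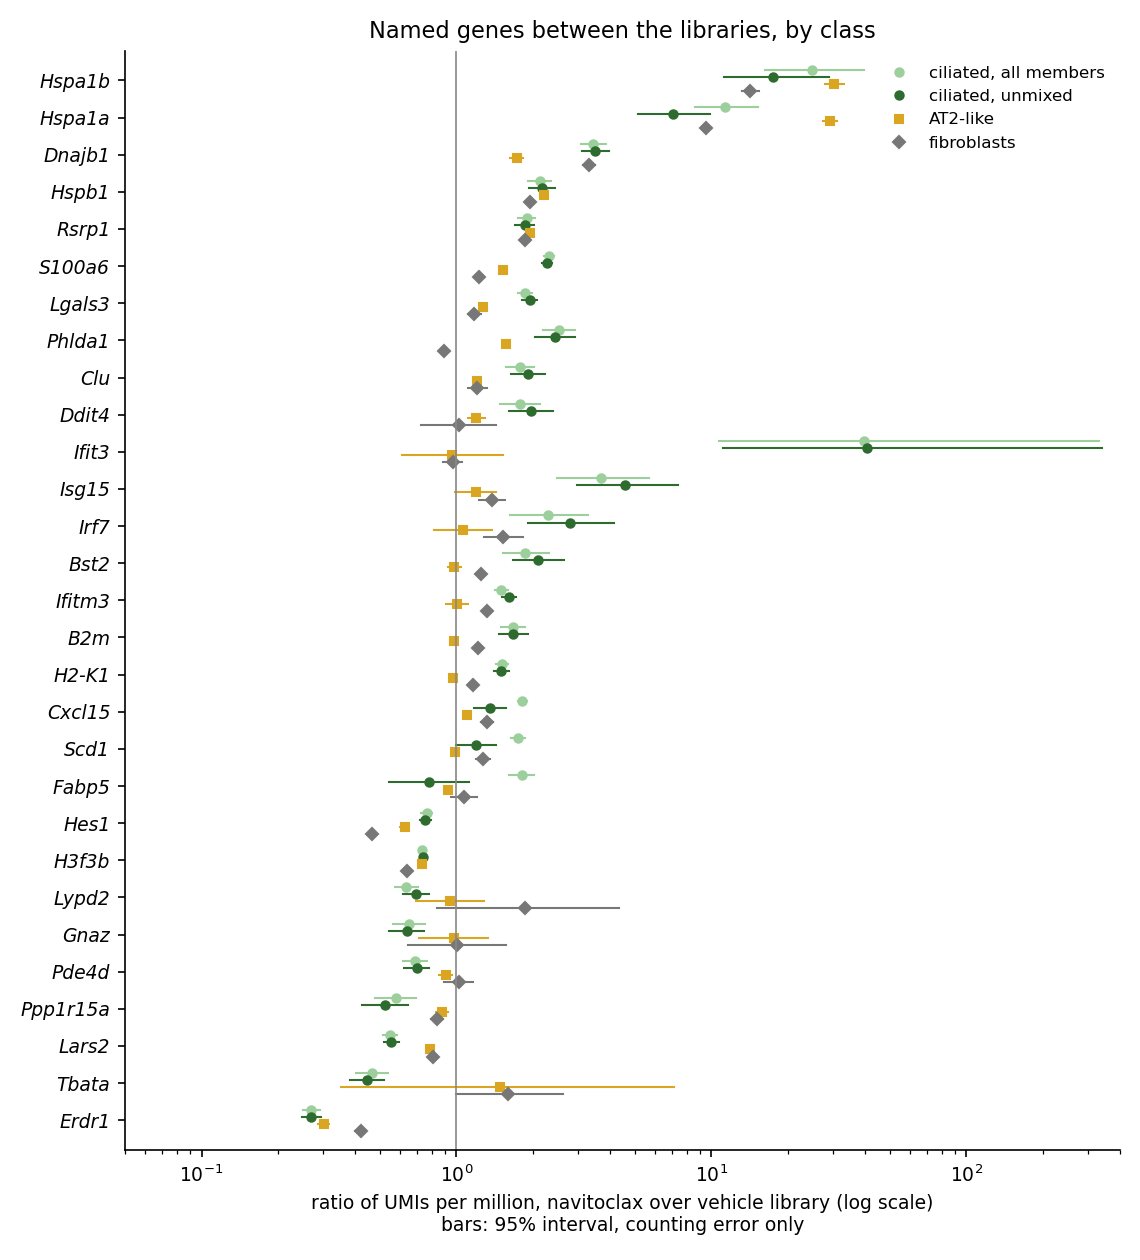
Ratio of CPM, navitoclax over vehicle library (horizontal, log scale; bars are 95% intervals for counting error), for named genes in all and unmixed ciliated members, AT2-like cells and fibroblasts. Hspa1b, Hspa1a and Erdr1 stand apart from 1 in every class, S100a6 and Lgals3 are farther from 1 in ciliated cells than in the other classes drawn, and Cxcl15, Scd1 and Fabp5 are past 1.5-fold only when mixed members are counted.

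Of the 17 genes of the cytosolic heat shock list that passed the level filter, 4 were at least 1.5-fold higher, where 0.91% of all genes were, and these 4 are inducible chaperones or their partners. Hspa1b, an HSP70 that is made when proteins unfold, had 807 UMIs (121 CPM) in navitoclax ciliated cells and 22 UMIs (4.87 CPM) in vehicle ciliated cells, a ratio of 24.8 (16.3 to 39.8). Its near-identical copy Hspa1a had 136 and 11.9 CPM, a ratio of 11.4 (8.62 to 15.2), and the split of reads between the 2 copies is uncertain. Dnajb1, the HSP40 partner of HSP70, had 268 and 77.9 CPM, a ratio of 3.45 (3.07 to 3.87). Hspb1, the small heat shock protein HSP27, had 227 and 107 CPM, a ratio of 2.12 (1.91 to 2.35).

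The other classes had the same direction for these genes, with sizes that differed. In AT2-like cells Hspa1a had a ratio of 29.2 (27.3 to 31.2) and Dnajb1 one of 1.72 (1.62 to 1.82). In fibroblasts the ratios were 9.56 (9.15 to 10.0) and 3.32 (3.15 to 3.50). The Hspa1a ratio of unmixed ciliated cells, 7.06, was thus 0.242 times that of AT2-like cells (0.176 to 0.332), and the Dnajb1 ratio, 3.50, was 2.04 times it (1.78 to 2.33).

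The rest of the heat shock list differed less. Of its 20 genes, 18 had a log2 ratio above 0 in ciliated cells, where 51.1% of all genes did. The list median was 0.19, against 0.14 in AT2-like cells and 0.28 in fibroblasts. In the 51 navitoclax and 69 vehicle club-like cells, whose median gene was 0.20 higher in the navitoclax library, it was 0.70. Hsp90aa1, the stress-inducible HSP90, had 2868 CPM in navitoclax and 2510 CPM in vehicle ciliated cells, and its level in AT2-like cells was 500 and 307 CPM. Hspa8, the constitutive HSP70, had 1386 and 1072 CPM, a ratio of 1.29 (1.25 to 1.34). Ahsa1, an activator of HSP90, had 253 and 271 CPM.

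Interferon response genes were higher in navitoclax ciliated cells. Of 20 listed genes, 17 had at least 20 UMIs and all 17 had a log2 ratio above 0, where 51.1% of all genes did. The list median was 0.53, against 0.04 in AT2-like cells and 0.19 in fibroblasts, and 0.63 in unmixed members. In club-like cells the median was 0.74, with 17 of 17 above 0, where the median of all genes was 0.20. Of the 6 that passed the level filter, Bst2 and Ifitm3 were at least 1.5-fold higher, where 0.91% of all genes were. Ifitm3, which blocks virus entry at membranes, had 496 CPM in navitoclax and 330 CPM in vehicle ciliated cells, a ratio of 1.5 (1.41 to 1.6), and its ratio was 1.01 (0.909 to 1.11) in AT2-like cells and 1.31 (1.30 to 1.33) in fibroblasts. Bst2, the tetherin that holds budding virus at the cell surface, had 52.3 and 28.1 CPM, a ratio of 1.86 (1.52 to 2.30).

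The low-level members differed by more, on few UMIs. Ifit3, an RNA-binding antiviral protein, had 117 UMIs in navitoclax and 2 UMIs in vehicle ciliated cells, a ratio of 39.5 with a wide interval of 10.7 to 330, and 35 of the 117 UMIs came from 1 cell. Isg15, the ubiquitin-like modifier, had 23.8 and 6.41 CPM, a ratio of 3.71 (2.48 to 5.71). Irf7, the transcription factor that amplifies the response, had 22.3 and 9.73 CPM, a ratio of 2.29 (1.63 to 3.28). In AT2-like cells the ratios of Ifit3, Isg15 and Irf7 were 0.963, 1.19 and 1.06, each with an interval that held 1.

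The interferon difference was uneven among cells. Each unmixed cell was thinned to 5000 UMIs, and 11 genes of the list were counted (Ifit1, Ifit3, Ifit3b, Isg15, Irf7, Oasl2, Rsad2, Usp18, Zbp1, Rtp4 and Oas1a). Of these, Usp18 and Rtp4 passed the level filter, and Usp18 had 896 UMIs in navitoclax and 572 UMIs in vehicle members. At least 3 of the 11 were seen in 31 of 371 navitoclax cells (8.36%) and 11 of 327 vehicle cells (3.36%), and at least 5 in 10 and 1 cells. At least 1 of the 11 genes was seen in 69.3% of these navitoclax cells and 71.6% of these vehicle cells. The 10 highest cells held 15.2% of the list's UMIs in the navitoclax library and 10.7% in the vehicle library. Without those 10 cells of each library, the median log2 ratio of the list in unmixed members was 0.24, with 15 of 17 genes above 0.

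Promoters of the interferon genes held the interferon response element (GAAA, any 2 bases, GAAA), searched on both strands, in 10 of the 15 listed genes with a RefSeq promoter (66.7%), against 3.04% of all promoters and 3.88% of the ciliated genes above. Promoters of 3 genes are shown with every match in capitals (overlapping matches run together), since the levels of these genes were higher together in the navitoclax library. Ifit3 lies at chr19:34583279-34583528 (plus strand), Isg15 at chr4:156200819-156201068 (minus strand) and Bst2 at chr8:71537473-71537722 (minus strand), on GRCm38.p6. The Ifit3 and Isg15 promoters carry 2 and 3 matches and that of Bst2 carries 2.
Ifit3: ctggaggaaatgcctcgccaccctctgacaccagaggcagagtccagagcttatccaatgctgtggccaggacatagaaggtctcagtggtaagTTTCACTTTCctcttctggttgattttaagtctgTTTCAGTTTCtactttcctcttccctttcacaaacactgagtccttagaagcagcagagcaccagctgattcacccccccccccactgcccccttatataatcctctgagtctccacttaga
Isg15: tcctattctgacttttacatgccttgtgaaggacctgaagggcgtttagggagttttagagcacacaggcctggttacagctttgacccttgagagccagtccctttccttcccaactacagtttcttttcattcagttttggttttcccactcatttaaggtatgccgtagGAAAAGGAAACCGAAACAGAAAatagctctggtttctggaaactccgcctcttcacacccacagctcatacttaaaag
Bst2: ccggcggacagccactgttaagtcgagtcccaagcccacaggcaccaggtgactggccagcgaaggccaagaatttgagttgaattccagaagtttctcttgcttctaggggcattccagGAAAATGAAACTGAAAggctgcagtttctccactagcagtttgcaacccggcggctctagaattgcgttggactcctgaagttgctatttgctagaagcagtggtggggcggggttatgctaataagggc

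Of the 13 listed genes of MHC class I antigen presentation and the immunoproteasome with at least 20 UMIs, 11 had a log2 ratio above 0 in ciliated cells (median 0.15), 7 in unmixed members, 3 in AT2-like cells and 13 in fibroblasts (median 0.14). Of all genes, 51.1% were above 0 in ciliated cells and 51.5% in unmixed members. In club-like cells 11 of the 13 listed genes were above 0, with a median of 0.62, where the median of all genes was 0.20. Of the 5 that passed the level filter, B2m and H2-K1 were at least 1.5-fold higher, where 0.91% of all genes were, and in unmixed members B2m alone was. B2m, the light chain of class I molecules, had 173 CPM in navitoclax and 104 CPM in vehicle ciliated cells, a ratio of 1.67 (1.5 to 1.86), against 0.979 (0.958 to 1.00) in AT2-like cells and 1.22 (1.20 to 1.24) in fibroblasts. The heavy chains H2-K1 and H2-D1 had 587 and 538 CPM in navitoclax cells and 389 and 399 CPM in vehicle cells, with ratios of 1.51 and 1.35. H2-K1 and H2-D1 are close relatives, and reads may be split between them. The immunoproteasome subunit Psmb10 had 26.3 and 32.3 CPM, a ratio of 0.815 (0.651 to 1.02).

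**Figure D4:**
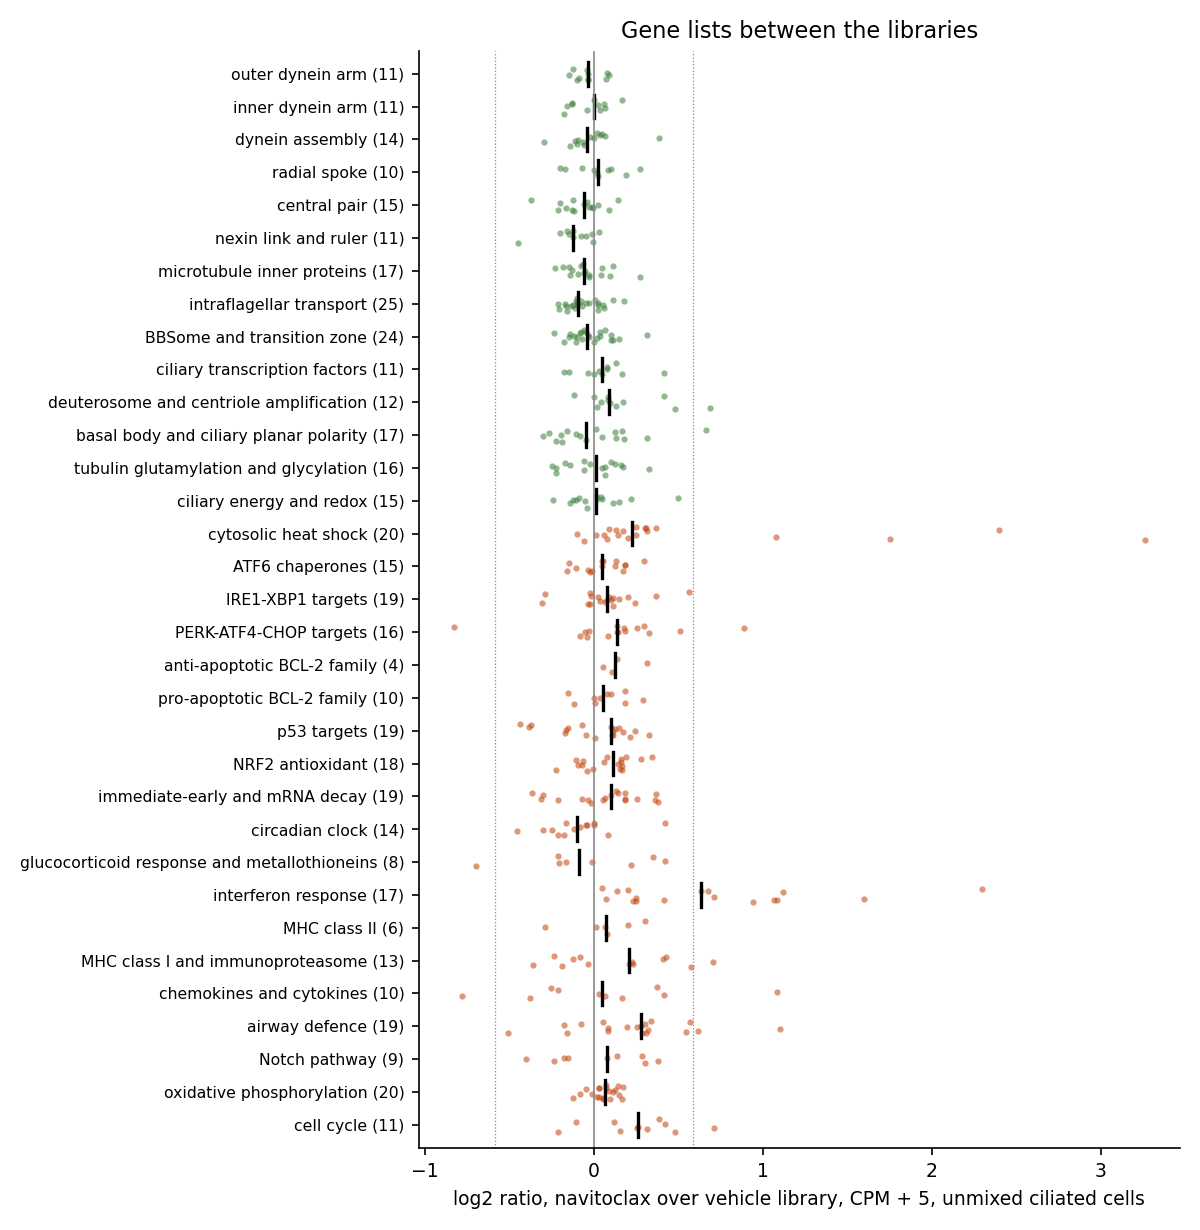
Log2 ratio of navitoclax over vehicle library on CPM + 5 in unmixed ciliated cells (horizontal) for the members of 33 gene lists with at least 20 UMIs (1 point per gene, black bar for the median, number of genes in brackets, dotted lines at 1.5-fold); cilium lists are at the top in green. The medians of the 14 cilium lists lie between -0.12 and 0.09, and that of the interferon list, 0.63, is the highest of the 33.

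S100a6 and Lgals3 were higher in navitoclax ciliated cells. S100a6, a small calcium-binding protein of the S100 family, had 1469 CPM in the navitoclax and 638 CPM in the vehicle library, a ratio of 2.30 (2.21 to 2.40). In AT2-like cells its ratio was 1.53 (1.48 to 1.57) and in fibroblasts 1.22 (1.21 to 1.24), and the ratio in unmixed ciliated cells was 1.48 and 1.85 times these. Lgals3, a lectin that is also a marker of injured, transitional alveolar epithelium, had 577 and 310 CPM, a ratio of 1.86 (1.75 to 1.98). The transitional marker keratins Krt8 and Krt18 had 1065 and 581 CPM in navitoclax and 1042 and 580 CPM in vehicle members. The whole list of 10 transitional markers, with Lgals3 and these keratins included, summed to 3421 CPM in navitoclax and 2957 CPM in vehicle members.

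Among cells, S100a6 ranked second for variance over mean, after the nuclear RNA Malat1, by the lower value of the 2 libraries. The ranking left out markers of AT2, club, goblet and fibroblast cells and genes with a low mean. It also left out gene models named Gm, Xist, Tsix, and ribosomal, mitochondrial, haemoglobin and immunoglobulin genes. At 5000 UMIs per cell, unmixed navitoclax members had a mean of 6.81 S100a6 UMIs, a 90th percentile of 18 and a maximum of 227, and vehicle members a mean of 3.07, a 90th percentile of 10 and a maximum of 46. S100a6 had a UMI in 62.0% of navitoclax and 48.9% of vehicle cells. Cells with more S100a6 tended to have more Lgals3 (Spearman's rho 0.52 in 371 navitoclax cells and 0.45 in 327 vehicle cells) and less Pcp4l1 (rho -0.36 and -0.29). These are correlations across cells of 1 library each at equal depth and are given as a description. Foxj1, for comparison, had a variance over mean of 1.46 in navitoclax and 1.54 in vehicle cells. These values were above the median of 1.09 over 1749 genes in each library and below those of S100a6 (47.0 and 13.9).

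**Figure D5:**
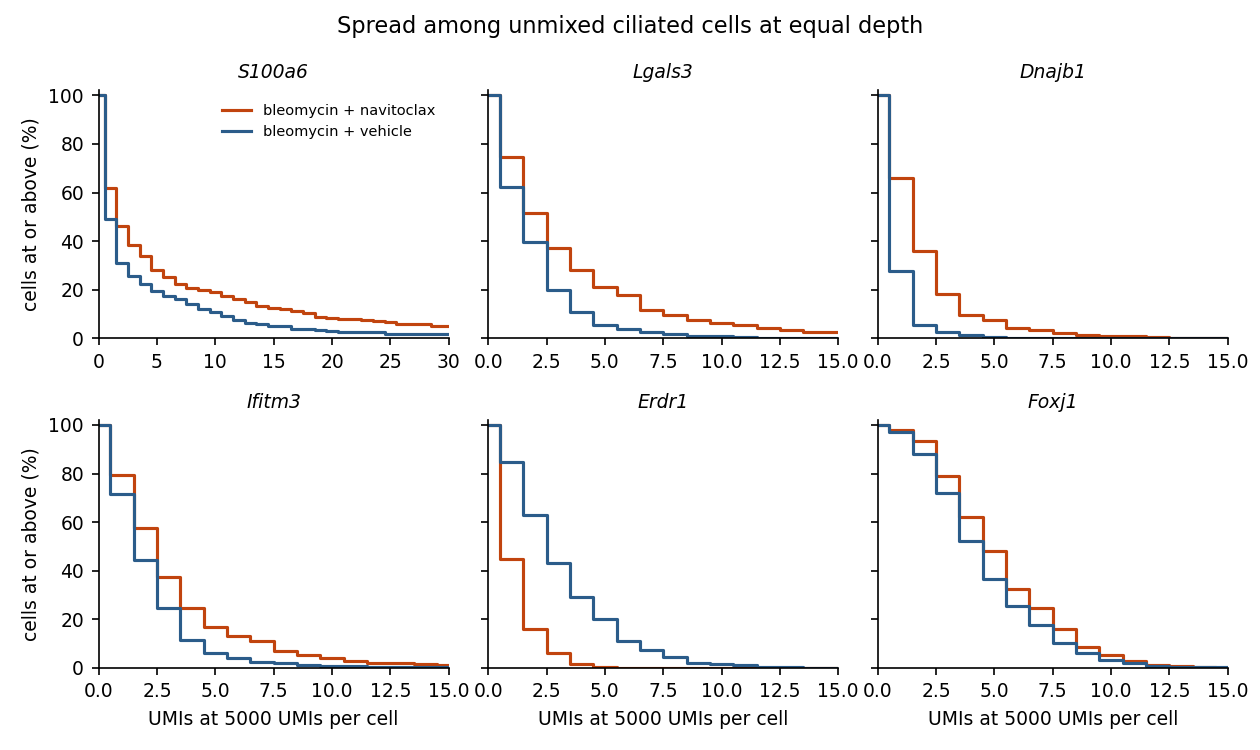
Share of unmixed ciliated cells (vertical, percent) with at least a given number of UMIs of 6 genes (horizontal) after thinning each cell to 5000 UMIs, in 371 navitoclax and 327 vehicle cells. S100a6 and Lgals3 have longer tails in the navitoclax library, Dnajb1 and Ifitm3 are shifted over most of the range, Erdr1 is lower in the navitoclax library and Foxj1 is close in both.

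Several other genes were higher in navitoclax ciliated cells. Phlda1, a regulator of apoptosis and growth factor signalling, had 135 CPM in navitoclax and 53.5 CPM in vehicle members, a ratio of 2.53 (2.19 to 2.92). Its ratio was 1.56 (1.53 to 1.6) in AT2-like cells and 0.892 (0.872 to 0.914) in fibroblasts. Clu, the extracellular chaperone clusterin, had 128 and 72.3 CPM, a ratio of 1.77 (1.56 to 2.02). Rsrp1 had 357 and 190 CPM, and its ratio of 1.88 was matched by 1.95 in AT2-like cells and 1.85 in fibroblasts.

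Of the genes that were lower in navitoclax ciliated cells, some were also lower in the other classes. Erdr1, a pseudoautosomal gene named as a regulator of erythroid differentiation, had 127 CPM in navitoclax and 471 CPM in vehicle members, a ratio of 0.270 (0.249 to 0.292), with 0.301 in AT2-like cells and 0.421 in fibroblasts. H3f3b, a histone H3.3 gene that was not past 1.5-fold, had 2638 and 3602 CPM, a ratio of 0.732, with 0.735 and 0.641 in those classes. Tbata, known from testis and thymus, had 46.8 and 100 CPM, a ratio of 0.466 (0.402 to 0.539), and was too low for a comparison in AT2-like cells (0.117 and 0.0792 CPM) and in fibroblasts (1.89 and 1.18 CPM). Gnaz, a G protein alpha subunit, had 55.2 and 84.7 CPM, a ratio of 0.651 (0.563 to 0.753), against 0.975 (0.715 to 1.33) in AT2-like cells. Lars2, the mitochondrial leucine tRNA synthetase, had 264 and 483 CPM, a ratio of 0.546 (0.513 to 0.582), and was also lower in AT2-like cells (0.789) and in fibroblasts (0.806).

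Of the drug's targets, Bcl2l1 (BCL-XL) had 74.6 CPM in navitoclax and 68.1 CPM in vehicle ciliated cells, a ratio of 1.10 (0.948 to 1.27). Bcl2l2 (BCL-W) had 19.3 and 14.8 CPM and Bcl2 had 8.22 and 7.08 CPM. Mcl1, which navitoclax does not block, had the highest level of the anti-apoptotic genes, 203 and 186 CPM. Of the pro-apoptotic genes, Bok had 264 and 257 CPM, Bax 117 and 121 CPM, and Bcl2l11 (Bim) 14.1 and 11.1 CPM. None of the 7 BCL-2 family genes that passed the level filter was past 1.5-fold, against 1.17% of all genes.

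The series is also about stress of the endoplasmic reticulum (ER), where secreted proteins fold. The lists of the ER stress sensors ATF6, IRE1 and PERK had median log2 ratios of 0.02, 0.10 and 0.13 in ciliated cells, with 9 of 15, 14 of 19 and 14 of 16 genes above 0. Of all genes, 51.1% were above 0 in ciliated cells and 51.5% in unmixed members. In unmixed members 9, 13 and 11 genes of these lists were above 0, with medians of 0.05, 0.08 and 0.14. The medians were 0.19, 0.11 and -0.02 in AT2-like cells. Hspa5, the main ER chaperone, had 488 CPM in navitoclax and 469 CPM in vehicle ciliated cells, a ratio of 1.04 (0.984 to 1.10). In the PERK list, Ddit4, a stress-induced inhibitor of mTOR, had 65.3 and 36.9 CPM, a ratio of 1.77 (1.48 to 2.13), and Ppp1r15a, which ends the PERK signal, had 32.6 and 56.4 CPM, a ratio of 0.578 (0.480 to 0.695). Ppp1r15a is also an immediate-early stress gene and had ratios of 0.878 in AT2-like cells and 0.839 in fibroblasts.

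The Notch list had a median log2 ratio of 0.03 in ciliated cells, and between -0.09 and 0.28 under the alternatives tried. Of the Notch genes, which hold airway cells back from the ciliated fate, Hes1 had 549 CPM in navitoclax and 718 CPM in vehicle ciliated cells, a ratio of 0.764 (0.728 to 0.801), with 0.627 in AT2-like cells and 0.468 in fibroblasts, and Jag1, a ligand, had 196 and 164 CPM. The oxidative phosphorylation list had a median log2 ratio of 0.05 with 16 of 20 genes above 0, where 51.1% of all genes were. The antioxidant NRF2 list had a median of 0.04, and its Gpx2 had 305 and 260 CPM. Among immediate-early genes, the first to be transcribed after a stimulus, Jun had 1253 and 994 CPM, a ratio of 1.26 (1.22 to 1.31), Fos had a ratio of 1.04 (1.01 to 1.08), and Ier3 had 115 and 157 CPM.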

How the data were processed

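The deposited values were raw UMI counts per gene and cell barcode for 27998 genes, made with Cell Ranger (version 4.0.0 per the file headers) on mm10 per the submitters' processing notes, with no other setting stated. The libraries held 98517048 (navitoclax) and 97958947 (vehicle) UMIs, and 20 barcodes occurred in both, 0 of them among the ciliated cells.

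The members, lists and thresholds were chosen with earlier results of these data known, and the thresholds of the comparison classes after seeing the data. Club-like cells had at least 500 UMIs per 10000 of club genes, AT2-like cells at least 500 of Sftpc, both under 10 of the ciliated rule genes, and fibroblasts at least 10 collagen UMIs and under 3 pan-epithelial UMIs. Epithelial barcodes had at least 3 UMIs of 6 pan-epithelial markers and at most 3 of collagen. Club-like cells numbered 51 and 69, and no ratios of single genes are given for them, since their median gene was 0.20 (log2) higher in the navitoclax library. Their list medians are given beside that value.

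For each class and library, summed UMIs were scaled to CPM. Ratios have conditional exact, shares Clopper-Pearson, and ratios of ratios log-normal Poisson 95% intervals. List medians used log2((navitoclax CPM + 5)/(vehicle CPM + 5)) over genes with at least 20 UMIs. The interval code was tested on simulated data. Scrublet (scanpy 1.11.5, expected rate 6%) was run but its calls were removed only in an alternative, and free RNA was not subtracted. Genes between libraries were named by rank, the 12 highest and 12 lowest by the interval bound nearest to 1 without other classes' markers, up to 3 per list, and for identity the 12 with the greatest fold; further genes, such as Lgals3, Ifitm3 and the structural examples, were chosen after their values were seen. Of the listed symbols, 5 had no match and 6 were matched under another name. Analyses used Python 3.11.15, numpy 2.4.6, scipy 1.17.1 and pandas 2.3.3.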

Additional observations from a re-analysis of the deposited data

Results flagged for a closer look

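Phlda1 lay on opposite sides of 1 in 2 cell classes. In unmixed ciliated cells its ratio of navitoclax over vehicle library was 2.43 (105 and 43.2 CPM), while in fibroblasts it was 0.892 (528 and 591 CPM, 95% interval 0.872 to 0.914). The ratio of the 2 ratios was 2.72 (2.28 to 3.25), where the interval covers counting error only, and with 1 library per group the difference between the classes was not tested.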

How the results depend on the processing

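No paired analysis was possible because each group has 1 library, and for the same reason no library could be left out. The ciliated share stayed 2.09 to 3.84 percentage points higher in the navitoclax library under 10 alternatives. The count of genes at least 1.5-fold higher (32) was 66 with a rule score of at least 10, 21 without barcodes with AT2, immune or endothelial RNA, 21 without mixed members (a step chosen after seeing the data), 53 with cells thinned to 2000 UMIs and 567 with a minimum of 20 UMIs and no CPM minimum. The count of genes at least 1.5-fold lower (9) was 19 without the collagen limit, 33 with thinned cells and 337 with that lower minimum. In 10 and 12 other alternatives these counts lay between 25 and 37 and between 6 and 10. The interferon median (0.53) was 0.34 at up to 30% mitochondrial UMIs, 0.39 without the collagen limit, 0.32 without the cell with the most UMIs of each gene, 0.28 with a pseudocount of 20 CPM, 0.29 over all genes with a UMI, 0.63 without mixed members and 0.24 without those and the 10 highest cells. The heat shock median and the median of all 14 cilium lists together stayed within 0.1 of their values under every alternative run, and so did 235 of 238 medians of single cilium lists; with thinned cells the inner dynein arm median was -0.17, the deuterosome one -0.07 and the basal body one -0.15. The glucocorticoid list median (-0.11) turned to 0.0051 with thinned cells and 0.070 over genes with at least 100 UMIs, and the log2 ratio of Fabp5 to -0.27 both without barcodes with AT2, immune or endothelial RNA and without mixed members; the cause was not tested. Of 273 medians of the other 16 lists, 244 stayed within 0.1 and 29 moved further, 13 of these with a change of sign from values under 0.1 (such as the p53 list, -0.05, at 0.10 without mixed members). Depth limits low genes most: Ifit3 rests on 2 vehicle UMIs.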

Other observations

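The airway defence list had a median log2 ratio of 0.27 in ciliated cells (0.15 to 0.49 under the alternatives). Of its 19 genes, 13 were above 0, where 51.1% of all genes were. The list's summed level was 22750 CPM in navitoclax and 26689 CPM in vehicle members. In club-like cells the list median was 2.40, with 18 of 19 above 0, where the median of all genes was 0.20. The list median was 0.12 in AT2-like cells and 0.14 in fibroblasts. Of the list's 11 genes that passed the level filter in all members, 3 were at least 1.5-fold higher and 3 at least 1.5-fold lower, where 0.91% and 0.256% of all genes were. With unmixed members alone, 3 of the same 11 genes were higher and 0 lower. Of these 3, only Muc4 also passed the level filter in unmixed members, where 0.582% and 0.166% of all genes were higher and lower. Wfdc2, a secreted protease inhibitor of the airway, had 4285 CPM in navitoclax and 3622 CPM in vehicle members, a ratio of 1.18 (1.16 to 1.21). Muc4, a membrane mucin at the ciliary surface, had 108 and 75 CPM, a ratio of 1.44 (1.26 to 1.64). Scgb3a2, a club cell secretoglobin, had 209 and 656 CPM, a ratio of 0.318 (0.298 to 0.339), with 842 of 1397 navitoclax UMIs and 2494 of 2967 vehicle UMIs in 1 cell each, and 30.9 and 23.4 CPM in unmixed members. Values of 4 further secretory genes came largely from single cells. Ltf had 242 UMIs in navitoclax members, 226 of them in 1 cell, and 0 in vehicle members, Bpifa1 had 164 UMIs in navitoclax members, 88 of them in 1 cell, and Reg3g had 101 UMIs in navitoclax members, 46 of them in 1 cell. Scgb3a1 had 326 UMIs in vehicle members, 314 of them in 1 cell.

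A single unmixed navitoclax member had 4 Mcidas UMIs together with 19 of Ccno and 14 of Ccdc67, regulators of basal body multiplication, and 48 of Foxj1, 7 of Foxn4 and 70 of the cell cycle list, among 25892 UMIs. It held 13.6% of the cell cycle UMIs of the unmixed navitoclax members. In the vehicle library 3 barcodes had 5 or 6 Mcidas UMIs, and all 3 also held Ccno, Foxj1 and Scgb1a1, the last with 2433 to 29438 UMIs. Of these 3, 1 was a mixed member, with a rule score of 20.2 per 10000, and the other barcodes had scores of 15.9 and 1.34, below the threshold.

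Among the clock genes, 11 of 14 had a log2 ratio below 0, with a median of -0.09 that was 0.05 with cells thinned to 2000 UMIs and -0.0045 without the collagen limit. Of all genes, 51.1% were above 0 in ciliated cells. In AT2-like cells 10 of the 14 clock genes were below 0 (median -0.08). Nr1d1, the repressor REV-ERB alpha, had 53.4 CPM in navitoclax and 76.7 CPM in vehicle ciliated cells, a ratio of 0.695 (0.598 to 0.809). Malat1 was the most variable gene among cells in the ranking that left out markers of other cell types. It had a mean of 134 UMIs per 5000 in navitoclax and 142 in vehicle unmixed members. Fos and Jun varied together, with Spearman's rho of 0.56 in 371 navitoclax cells and 0.57 in 327 vehicle cells. Dnajb1 and Fos had a rho of 0.40 in navitoclax cells and 0.06 in vehicle cells, given as a description. At 5000 UMIs per cell Dnajb1 had a UMI in 66.0% of navitoclax and 27.8% of vehicle cells, so these rho values rest on unlike levels.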
